A study of Mus musculus with 11 samples.

Results

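Matricellular proteins are secreted into the extracellular matrix, where they regulate cells and matrix assembly more than they bear load. The group described here holds 10 genes chosen by name: *Sparc*, the thrombospondins *Thbs1* and *Thbs2*, periostin (*Postn*), tenascin-C (*Tnc*), the CCN genes *Ctgf* (now *Ccn2*) and *Cyr61* (now *Ccn1*), osteopontin (*Spp1*), and the fibulins *Fbln1* and *Fbln2*. All 10 were found in the table of 46603 genes and all 10 were among the 13880 genes with enough reads to be tested. The livers were those of 11 male leptin-deficient *ob/ob* mice. They started an AMLN diet, which is high in trans-fat, fructose and cholesterol, at 5 to 6 weeks of age and stayed on it for 15 weeks before treatment and throughout the 8 weeks of treatment. INT-767, an agonist of the bile acid receptors FXR and TGR5, was given to 4 of them by daily gavage at 10 mg/kg, and 7 mice received vehicle (carboxymethyl cellulose). Both groups thus share the *ob/ob* genotype, the diet and a baseline liver biopsy, and no lean or chow-fed mice were analysed here.

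In injured liver, stellate cells that turn into myofibroblasts are a main source of these proteins, joined by duct cells and macrophages for osteopontin. *Ctgf* and *Cyr61* are textbook targets of YAP, a coactivator that works through TEAD transcription factors and responds to stiff matrix, and *Ctgf*, *Thbs1*, *Postn* and *Tnc* are also induced by TGF-β. Most of the proteins signal to cells through integrins, and thrombospondin-1 can release TGF-β from its latent form. In RNA from whole liver, fewer cells of a type and less RNA per cell cannot be told apart.

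Total counts per liver were between 7966963 and 15295230 with vehicle and between 7381211 and 16022459 with INT-767. Levels are given as CPM, counts of a gene relative to the library's total on tested genes, scaled between libraries by TMM, and as RPKM, the same value per kilobase of merged exons, where genes are compared with each other. *Nr0b2* (SHP), which FXR switches on, served as a check of the labels. Its mean was 17.1 ± 5.92 CPM with vehicle (SD, n = 7) and 49.7 ± 9.50 CPM with INT-767 (SD, n = 4), and every INT-767 liver lay above every vehicle liver. Vehicle replicate 3 stood apart from the other livers in single genes, though not over all genes. Its level of *Hilpda*, a hypoxia-induced lipid droplet protein, was 88.1 CPM, and the other 6 vehicle livers had a median of 5.08 CPM. Values that moved most without this liver are given both ways.

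After INT-767, 4 of the 10 matricellular genes were lower by edgeR's quasi-likelihood test at an adjusted p under 0.05, namely *Fbln2*, *Thbs1*, *Sparc* and *Ctgf*. None was higher, and at an unadjusted p under 0.05 edgeR had 6 lower (15.6% of all tested genes) and 0 higher (17.4%). DESeq2 called 5 lower (9.86% of all) and 0 higher (10.4%), limma-voom 4 lower (4.11%) and 0 higher (4.37%). Among all 13880 tested genes, 4.68% were lower and 5.04% were higher by the same rule. These 4 genes were also the 4 whose groups did not overlap, each INT-767 liver lying below each vehicle liver, a separation downwards found in 3.65% of all tested genes. The fitted log2 fold change of INT-767 over vehicle was negative for all 10 genes with TMM scaling, with a median of -0.98, against -0.01 for all tested genes. Over 13835 genes it went with GC content (Spearman's rho -0.30) and transcript length (-0.24). After correction for both, 9 of the 10 were negative with a median of -0.83, against 0.01 for all tested genes. EdgeR then called 3 lower (5.86% of all). Without Vehicle replicate 3 the median of the 10 genes was -0.79 and 3 genes were called. Without INT-767 replicate 2 only *Ctgf* was called, at an adjusted p of 0.0473 in edgeR. Over all tested genes edgeR called 1349 with all livers and 812 without Vehicle replicate 3. It called 274 without INT-767 replicate 2 and 3276 without Vehicle replicate 1.

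**Figure D1:**
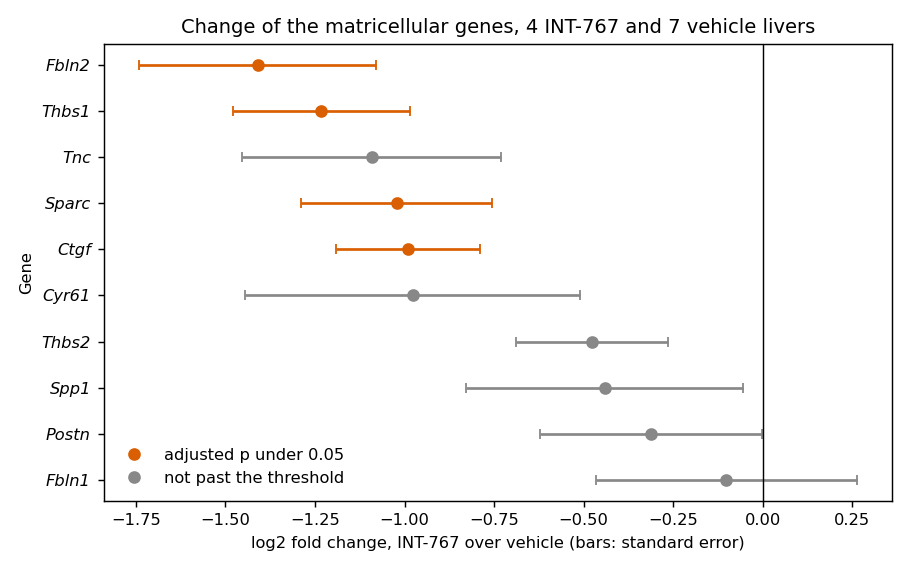
The log2 fold change of each matricellular gene (x axis, INT-767 over vehicle) with its standard error as bars, for 4 INT-767 and 7 vehicle livers; orange points passed an adjusted p of 0.05. *Fbln2*, *Thbs1*, *Sparc* and *Ctgf* passed between -1.41 and -0.99, and *Fbln1* lay nearest to 0 at -0.10.

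*Sparc* encodes osteonectin, a collagen-binding glycoprotein that assists the assembly of collagen fibrils and basement membranes. It lies on chromosome 11 (GRCm38, 55394500 to 55423183, minus strand). The 7 vehicle livers ranged from 102.3 to 219.6 CPM with a median of 139.8 CPM, and INT-767 replicates 1 to 4 had 82.7, 40.9, 84.2 and 85.5 CPM. INT-767 replicates 1, 3 and 4 lay close together below the lowest vehicle liver, and replicate 2 was lower still. The group means were 149 ± 45.1 CPM (SD, n = 7) and 73.3 ± 21.6 CPM (SD, n = 4). The log2 fold change was -1.02 (SE 0.27, adjusted p = 0.0337 by edgeR), and a two-sided exact Mann-Whitney comparison had p = 0.00606, the smallest that 7 against 4 livers allow. The edgeR call was close to its threshold: it held in 5 of 11 fits that each left out 1 liver, with adjusted p up to 0.113. It was lost without Vehicle replicate 3, 4, 5 or 6 and without INT-767 replicate 2 or 4. The study itself named *Sparc* as one of several matrix genes that were lower in these livers, so its fall is not independent evidence for the group.

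The thrombospondins *Thbs1* and *Thbs2*, trimeric glycoproteins that bind CD36, CD47 and integrins, differed in how clearly they separated the groups. *Thbs1* lies on chromosome 2 (118111876 to 118127133, plus strand). Its vehicle livers ranged from 8.28 to 15.6 CPM with a median of 10.9 CPM, and INT-767 replicates 1 to 4 had 3.88, 3.46, 4.50 and 7.12 CPM. Even the highest INT-767 liver, replicate 4, lay below the lowest vehicle liver. Its log2 fold change was -1.23 (SE 0.25, adjusted p = 0.0122 by edgeR), a 2.35-fold lower level with INT-767, and the exact Mann-Whitney p was 0.00606. The call was lost without INT-767 replicate 2 (adjusted p = 0.0518) and when the counts were corrected for GC content and transcript length (log2 fold change -0.83, adjusted p = 0.0651).

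*Thbs2*, on chromosome 17 (14665500 to 14694235, minus strand), ranged from 11.6 to 20.2 CPM in vehicle livers with a median of 17.6 CPM. INT-767 replicates 1 to 4 had 7.75, 10.9, 14.4 and 13.04 CPM. All 4 lay below the vehicle median but 2 of them lay within the vehicle range, so the groups overlapped. Its log2 fold change was -0.48 (SE 0.21, adjusted p = 0.141 by edgeR) and the exact Mann-Whitney p was 0.109. Under the correction for GC content and length it was -0.15.

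Of the 2 CCN genes, *Ctgf* fell and *Cyr61* did not pass the test. *Ctgf*, connective tissue growth factor, lies on chromosome 10 (24595442 to 24598683, plus strand). It was the most uniform of the 10 genes in vehicle livers, from 39.3 to 54.7 CPM with a median of 48.0 CPM and a coefficient of variation of 11.6%. INT-767 replicates 1 to 4 had 18.0, 16.03, 29.7 and 31.3 CPM. Replicates 1 and 2 formed a lower pair, and all 4 lay below the vehicle range. EdgeR gave a log2 fold change of -0.99 (SE 0.20, adjusted p = 0.0129 by edgeR), and the exact Mann-Whitney p was 0.00606. *Ctgf* was called in all 11 fits that left out 1 liver, with adjusted p between 0.00823 and 0.0473. Of its exon bases, 23.2% lie under an antisense gene, *Gm15270*, and whether the counting used strand is not given in the sources used here, so reads of the pair could not be separated.

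*Cyr61*, a fast-induced gene whose protein shares its domain plan with CTGF, lies on chromosome 3 (145646976 to 145649981, minus strand). Its promoter is shown because it held the only match to the TEAD core GGAATG among the matricellular promoters searched, and it also held a TATA box. The window spans chr3:145649986-145650115 (GRCm38.p6, RefSeq, minus strand), ends at the base before the start site, and has both matches in capitals, the TEAD core reading CATTCC because it lies on the opposite strand.
*Cyr61*: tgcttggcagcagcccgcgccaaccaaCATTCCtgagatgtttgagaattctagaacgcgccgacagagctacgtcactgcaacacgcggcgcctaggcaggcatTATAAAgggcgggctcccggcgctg
The TEAD core lies at bases -103 to -98 and the TATA box at -25 to -20. On either strand of the 250 bases before a start site, GGAATG was found in 12.64% and TATAAA in 12.37% of all 32851 RefSeq promoters, so both are common. RefSeq promoters were found for 8 of the 10 genes, in 12 records, and not for *Ctgf* or *Thbs1*. The AP-1 letters TGANTCA (6.749% of all promoters) were in none of the 12. A match in letters is a description of the sequence and says nothing of what binds there.

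In vehicle livers *Cyr61* ranged from 13.2 to 68.4 CPM with a median of 17.2 CPM, and the highest value, in Vehicle replicate 3, was 4.08 times the median of the other 6. INT-767 replicates 1 to 4 had 7.82, 10.5, 11.1 and 21.5 CPM. Replicates 1 to 3 lay below every vehicle liver, whereas replicate 4 exceeded 4 of the 7. For *Cyr61* the log2 fold change was -0.98 (SE 0.47, adjusted p = 0.162 by edgeR), and without Vehicle replicate 3 it was -0.50 (adjusted p = 0.260). The exact Mann-Whitney p over all livers was 0.0727.

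The fibulins are calcium-binding glycoproteins of elastic fibres and basement membranes, and of the 2 measured here *Fbln2* fell and *Fbln1* did not pass the test. *Fbln2* lies on chromosome 6 (91212455 to 91272540, plus strand). Its vehicle livers ranged from 5.20 to 14.4 CPM with a median of 8.73 CPM, and INT-767 replicates 1 to 4 had 3.50, 2.21, 4.50 and 3.22 CPM. Vehicle replicates 5 and 6 were high and replicates 1 and 2 low, and all of them lay above the INT-767 livers. The log2 fold change was -1.41 (SE 0.33, adjusted p = 0.0236 by edgeR), a 2.66-fold lower level. With all livers and treatment only in the fit, it was the largest fall of the 10 genes. The exact Mann-Whitney p was 0.00606, and the edgeR call held in 9 of 11 fits without 1 liver, with adjusted p up to 0.0958. It was lost without INT-767 replicate 2 or 4. Without INT-767 replicate 4, *Thbs1* (-1.52) and *Tnc* (-1.48) had larger falls than *Fbln2* (-1.395). Under the replicate block *Tnc* (-1.17) and *Thbs1* (-1.085) did, against -1.045 for *Fbln2*.

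*Fbln1*, on chromosome 15 (85205949 to 85286535, plus strand), had the lowest mean RPKM of the 10 genes in vehicle livers, with 11 to 57 reads per liver over all 11. Vehicle livers ranged from 1.03 to 4.14 CPM with a median of 1.90 CPM, and INT-767 replicates 1 to 4 had 2.42, 1.52, 2.96 and 1.42 CPM. The INT-767 livers lay on both sides of the vehicle median. Between the groups the log2 fold change was -0.10 (SE 0.36, adjusted p = 0.854 by edgeR), and its sign depended on the processing: it was 0.11 after correction for GC content and length.

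Tenascin-C, a large hexameric glycoprotein that appears in remodelling tissue, came close to the threshold. *Tnc* lies on chromosome 4 (63959785 to 64047015, minus strand). Vehicle livers ranged from 2.86 to 7.997 CPM with a median of 5.99 CPM, and INT-767 replicates 1 to 4 had 2.86, 1.11, 2.11 and 4.57 CPM. Vehicle replicates 1 and 7 were the low ones, and INT-767 replicate 4 lay above them. For *Tnc* the log2 fold change was -1.09 (SE 0.36, adjusted p = 0.0704 by edgeR). It passed the threshold in DESeq2 (adjusted p = 0.0218), and in edgeR with scaling by library size only (0.0446). In edgeR it also passed without Vehicle replicate 1 (0.0441), Vehicle replicate 7 (0.0428) or INT-767 replicate 4 (0.0379). After correction for GC content and length it was -0.54 (adjusted p = 0.271 by edgeR).

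Periostin, a ligand of integrins that aids collagen crosslinking, spread widely among treated mice. *Postn* lies on chromosome 3 (54361109 to 54391037, plus strand). Vehicle livers ranged from 18.0 to 37.7 CPM with a median of 28.4 CPM, and INT-767 replicates 1 to 4 had 26.2, 14.4, 10.8 and 38.3 CPM. INT-767 livers held both the lowest value, in replicate 3, and the highest value, in replicate 4, of all 11. For *Postn* the log2 fold change was -0.31 (SE 0.31, adjusted p = 0.481 by edgeR), -0.70 without INT-767 replicate 4 and -0.80 after correction for GC content and length. It was -0.17 without INT-767 replicate 2 and -0.08 without INT-767 replicate 3, and none of these values passed the threshold.

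Osteopontin, an acidic phosphoprotein that binds integrins and CD44, was by far the most abundant of the 10. *Spp1* lies on chromosome 5 (104435118 to 104441050, plus strand), and 18.8% of its exon bases are shared with *Gm42793*, an unclassified gene on the same strand. Its promoter is shown as that of the gene with the highest level, in a window at chr5:104434961-104435110 (GRCm38.p6, RefSeq, plus strand) that ends at the base before the start site. The capitals mark the only match to the RUNX core TGTGGT among the 12 matricellular promoters, read here as ACCACA on the opposite strand, at bases -128 to -123.
*Spp1*: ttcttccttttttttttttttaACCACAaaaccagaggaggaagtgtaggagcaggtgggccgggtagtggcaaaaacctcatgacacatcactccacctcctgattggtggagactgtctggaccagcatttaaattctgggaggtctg
The same letters were in 14.05% of all promoters. In vehicle livers *Spp1* ranged from 684 to 1863 CPM with a median of 766.9 CPM. Vehicle replicates 1 and 7 were well above the other 5, which lay together. INT-767 replicates 1 to 4 had 319.9, 558, 749 and 1306 CPM. Replicates 1 and 2 lay below every vehicle liver, replicate 3 within the vehicle range and replicate 4 above 5 of the 7. For *Spp1* the log2 fold change was -0.44 (SE 0.39, adjusted p = 0.422 by edgeR) and the exact Mann-Whitney p was 0.315. Without INT-767 replicate 4 it was -0.88 (adjusted p = 0.177 by edgeR), and after correction for GC content and length -0.83 (adjusted p = 0.0580). It was nearer to 0 without INT-767 replicate 1 (-0.19) or Vehicle replicate 1 (-0.21).

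Per kilobase of exon, mean vehicle levels fell in the order *Spp1* (604 RPKM), *Sparc* (39.4 RPKM), *Ctgf* (16.5 RPKM), *Cyr61* (12.5 RPKM), *Postn* (3.22 RPKM), *Thbs2* (2.28 RPKM), *Thbs1* (1.85 RPKM), *Fbln2* (1.40 RPKM), *Tnc* (0.754 RPKM) and *Fbln1* (0.503 RPKM). *Spp1* exceeded *Sparc*, *Sparc* exceeded *Ctgf*, *Cyr61* exceeded *Postn* and *Thbs1* exceeded *Fbln2* in 7 of 7 vehicle livers. Every other pair of neighbours kept its order in 6 of 7, so their ranges overlapped. The vehicle ranges of *Thbs1* and *Fbln2* overlapped as well, though the order held within each liver. Most of the order also held with INT-767, but *Tnc* exceeded *Fbln1* in only 1 of 4 INT-767 livers. *Spp1* made up a median of 86.6% of the summed RPKM of the 10 genes with vehicle (range 82.3% to 94.3%) and 92.0% with INT-767 (range 83.6% to 93.7%). The other 9 genes together summed to 78.3 ± 15.1 RPKM with vehicle (SD, n = 7) and 40.3 ± 11.2 RPKM with INT-767 (SD, n = 4).

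**Figure D2:**
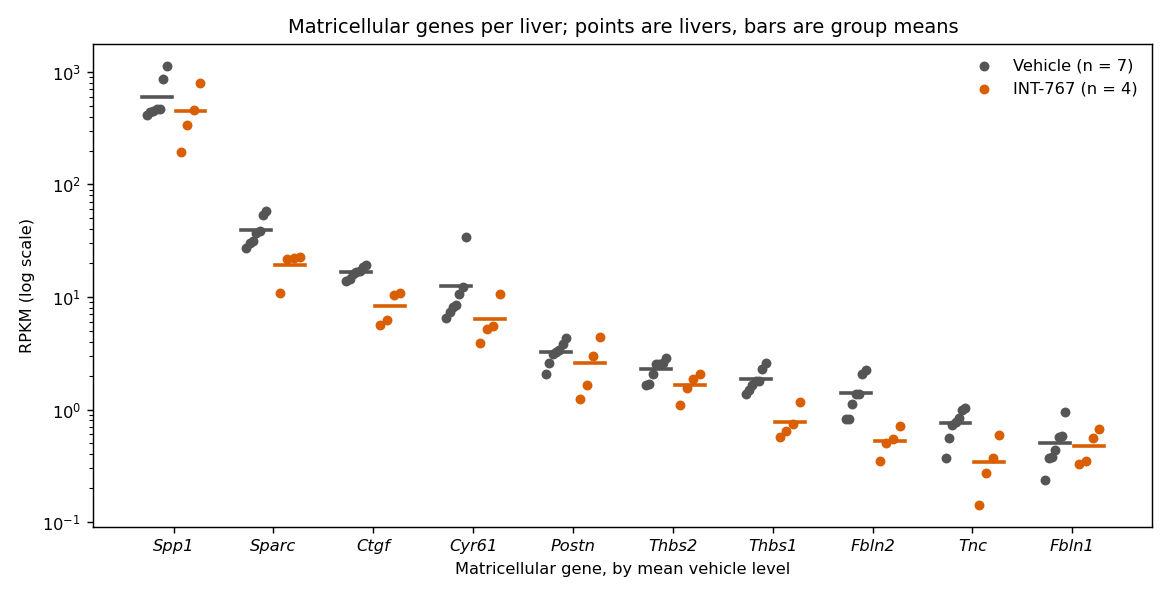
RPKM of each matricellular gene (log y axis) in every liver, with vehicle in grey (n = 7) and INT-767 in orange (n = 4); points are livers and bars are group means. The groups lie apart for *Sparc*, *Ctgf*, *Thbs1* and *Fbln2*, and the single high *Cyr61* point is Vehicle replicate 3.

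Ratios between relatives within each liver were taken as differences of log2(CPM + 0.5), and 3 such ratios were chosen after the single values had been seen, so they are given as a description with no test. For *Fbln2* over *Fbln1* the log2 ratio was 1.79 ± 0.42 with vehicle (SD, n = 7) and 0.59 ± 0.24 with INT-767 (SD, n = 4), without overlap. The log2 ratio of *Thbs1* over *Thbs2* was -0.49 ± 0.25 with vehicle and -1.21 ± 0.39 with INT-767, again without overlap. For *Ctgf* over *Cyr61* the log2 ratios were 1.12 ± 0.87 and 0.91 ± 0.42, and the groups overlapped. Without Vehicle replicate 3, whose ratio was -0.79, the vehicle mean was 1.44 ± 0.26 (SD, n = 6).

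The livers at the extremes were often the same ones. INT-767 replicate 4 was the highest INT-767 liver for 7 of the 10 genes and INT-767 replicate 2 the lowest for 5. Among vehicle livers, replicate 5 was the highest for 6 genes and replicate 2 the lowest for 4.

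Of 24 further matricellular genes listed beside the 10, 16 could be tested, and 3 were lower and 0 higher by edgeR, with a median log2 fold change of -0.70. The count was 0 in edgeR without Vehicle replicate 5 or 6 or INT-767 replicate 2, 1 without Vehicle replicate 4 or INT-767 replicate 1, 2 without Vehicle replicate 3 or 7 or INT-767 replicate 4, and 5 without Vehicle replicate 1. No gene of this list was higher at an unadjusted p under 0.05 in edgeR, DESeq2 or limma-voom. The 3 were *Fbln5*, an organiser of elastic fibres (-0.70, SE 0.17, adjusted p = 0.0259), *Sparcl1*, the closest relative of *Sparc* (-0.80, SE 0.21, adjusted p = 0.0341), and *Wisp1*, a further CCN gene (-1.36, SE 0.39, adjusted p = 0.0465). After correction for GC content and length the median was -0.35. The calls of *Fbln5* (log2 fold change -0.435, adjusted p = 0.102) and *Wisp1* (-1.17, 0.0758) were then lost in edgeR. Those of *Efemp2* (adjusted p = 0.0453) and *Tgfbi* (0.0449), named for this change, were gained. The most abundant gene of the list, vitronectin (*Vtn*), which hepatocytes secrete, had 1233 ± 248 CPM with vehicle (SD, n = 7) and 1238 ± 293 CPM with INT-767 (SD, n = 4).

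Among 20 tested receptors of matricellular proteins, 4 were lower and 1 was higher by edgeR, with a median log2 fold change of -0.41. The lowest p belonged to *Itgam*, the integrin chain of complement receptor 3 on myeloid cells (-1.73, SE 0.29, adjusted p = 0.00498), of whose exon bases 68.7% are shared with another gene on the same strand. *Egfr* (-1.25, SE 0.26, adjusted p = 0.0143) and *Itga6*, a chain of laminin receptors (-1.24, SE 0.33, adjusted p = 0.0369), followed, and *Itgb2*, the partner of *Itgam*, was the fourth. *Sdc1*, a heparan sulfate proteoglycan of epithelial cells, was the one that rose, from 259 ± 63.6 to 435 ± 106 CPM (adjusted p = 0.0487 by edgeR). That call was lost in 9 of 11 edgeR fits without 1 liver (it held without Vehicle replicate 1 or INT-767 replicate 3), with library size only or upper-quartile factors, with either other filter and in limma-voom, while *Sdc1* was the only receptor higher at an unadjusted p under 0.05 in DESeq2 and limma-voom. The receptors called lower were 1 without INT-767 replicate 2 and 7 without Vehicle replicate 1. They were 2 without INT-767 replicate 3 or Vehicle replicate 2, 3, 4, 5 or 6. Calls over all tested genes, 1349 with all livers, were 274 without INT-767 replicate 2 and 3276 without Vehicle replicate 1. *Lrp1*, the most abundant, had 659 ± 360 CPM with vehicle and 274 ± 131 CPM with INT-767 (log2 fold change -1.26, adjusted p = 0.0984 by edgeR), and after correction for GC content and length the log2 fold change was -0.49.

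None of the genes of the YAP, TGF-β and structural matrix lists was higher at an unadjusted p under 0.05 in edgeR, DESeq2 or limma-voom with all livers and no correction. With the correction for GC content and length 2 TGF-β genes were, and 1 was without Vehicle replicate 1 or INT-767 replicate 2. The YAP target list, without *Ctgf* and *Cyr61*, had 7 genes lower and 0 higher of 20 tested by edgeR, and a median log2 fold change of -0.84. *Ankrd1*, a nuclear ankyrin-repeat protein, fell by 2.10 on the log2 scale (SE 0.33, adjusted p = 0.00450 by edgeR), from 4.99 ± 1.62 to 1.17 ± 0.50 CPM. *Ajuba*, a LIM protein of the Hippo pathway, had a log2 fold change of -1.23 (SE 0.20, adjusted p = 0.00450). For *Axl*, a receptor tyrosine kinase and the most abundant of the list, it was -0.87 (SE 0.16, adjusted p = 0.00817). In each of these 3 genes the groups did not overlap, and the other 4 called were *Tgfb2*, *Myof*, *Ptpn14* and *Crim1*. After correction for GC content and length the median was -0.53, with 6 genes called. The list had 4 called genes without Vehicle replicate 3, 4, 5 or 6 or INT-767 replicate 2 or 4, and 10 without Vehicle replicate 1.

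In the TGF-β list, 5 of 16 tested genes were lower and 0 higher by edgeR, with a median log2 fold change of -0.77. *Tgfb2*, a ligand, had -1.17 (SE 0.27, adjusted p = 0.0223), *Tgfbr2*, its receptor, -0.79 (SE 0.20, adjusted p = 0.0302) and *Ltbp2*, a latent TGF-β binding protein, -2.22 (SE 0.58, adjusted p = 0.0339). *Ltbp3* and *Tgfb3* were the others. After correction for GC content and length the median was -0.43 and *Tgfbr2* was not called (log2 fold change -0.35, adjusted p = 0.0763 by edgeR). Limma-voom called 2 genes of the list. Only 1 gene of this list was called without Vehicle replicate 3, 4, 5 or 6 or INT-767 replicate 2 or 4, and 3 without INT-767 replicate 1.

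Among structural matrix genes that matricellular proteins bind or organise, 6 of 16 were lower and 0 higher by edgeR, with a median log2 fold change of -1.24. The type I collagen genes fell furthest, *Col1a1* with -2.96 (SE 0.74, adjusted p = 0.0297) and *Col1a2* with -2.35 (SE 0.57, adjusted p = 0.0272). *Eln*, elastin, had -1.44 (SE 0.36, adjusted p = 0.0283), and *Col6a3*, *Nid1* and *Fbn1* were also called. The study itself reported *Col1a1*, *Col3a1*, *Fbn1* and *Nid1* as lower in these livers, so their falls are not independent evidence. After correction for GC content and length *Nid1* (-0.60 from -0.98, adjusted p = 0.124) and *Fbn1* (-0.54 from -1.23, 0.325) were not called by edgeR. Of the exon bases of *Fbn1*, 20.1% lie under an antisense gene. *Fn1*, fibronectin, the most abundant, had 1171 ± 598 CPM with vehicle and 628 ± 464 CPM with INT-767 (adjusted p = 0.250 by edgeR). The list had 2 called genes without Vehicle replicate 3 or 4, and 0 in edgeR without Vehicle replicate 5 or 6 or INT-767 replicate 2. Without Vehicle replicate 1 it had 10, in a fit that called 3276 of all tested genes, against 1349 with all livers.

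Markers of cell types that can make matricellular proteins were also among the genes called, and their part in the results was not tested. Of 9 tested myofibroblast markers, 4 were lower by edgeR and the median log2 fold change was -1.20. The 10 markers summed to 687 ± 367 CPM with vehicle (SD, n = 7) and 201.5 ± 93.6 CPM with INT-767 (SD, n = 4), without overlap. Most of the vehicle sum came from *Col3a1* (mean 289 CPM), *Col1a1* (158 CPM) and *Col1a2* (158 CPM). *Acta2* (adjusted p = 0.173 by edgeR), *Tagln* (0.281), *Timp1* (0.231) and *Lox* (0.155) had negative log2 fold changes but were not called. Besides the type I collagen genes, *Loxl1*, a crosslinking enzyme of elastin (-1.20, SE 0.30, adjusted p = 0.0291), and *Pdgfrb* were called, and the most abundant, *Col3a1*, had an adjusted p of 0.0516. *Col1a1*, *Col1a2*, *Col3a1* and *Lox* stand in both this list and that of structural matrix. Of 10 markers of quiescent stellate cells none was called by edgeR, 1 was lower at an unadjusted p under 0.05, and DESeq2 called none. At that unadjusted p edgeR had 3 lower by library size only, 4 without INT-767 replicate 1 and 0 with the correction for GC content and length. The 10 markers summed to 383 ± 89.8 CPM with vehicle and 363 ± 57.5 CPM with INT-767. *Reln*, the most abundant, had 112 ± 44.2 and 69.1 ± 23.1 CPM (adjusted p = 0.154 by edgeR). Its log2 fold change was -0.70, and -0.09 after the correction.

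Duct markers and markers of lipid-associated macrophages, the cells known for osteopontin, had negative log2 fold changes for 10 of 10 genes each. Of the duct markers 3 were called lower by edgeR: *Muc1* (-1.42, SE 0.32, adjusted p = 0.0193), *Ehf* (-1.28, SE 0.29, adjusted p = 0.0201) and *Cldn4* (-1.29, SE 0.31, adjusted p = 0.0244). The sum of the duct markers was 120.0 ± 18.1 CPM with vehicle and 69.8 ± 21.2 CPM with INT-767, and the most abundant, *Sox9*, had 24.8 and 16.3 CPM. Of the macrophage markers *Cd63* (-1.08, SE 0.25, adjusted p = 0.0232) and *Cd9* (-0.76, SE 0.16, adjusted p = 0.0154) were called, and their list summed to 1355 ± 160.4 and 974 ± 298 CPM, with *Ctsd* the most abundant at 648 and 623 CPM.

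The count of myofibroblast markers called lower by edgeR was 0 without Vehicle replicate 5 or 6 or INT-767 replicate 2. It was 1 without Vehicle replicate 4, 2 without Vehicle replicate 3 and 3 without INT-767 replicate 4. It was 4 without Vehicle replicate 2 or INT-767 replicate 1 or 3, and 5 without Vehicle replicate 1 or 7. The count of duct markers called lower was 0 without INT-767 replicate 2 and 5 without INT-767 replicate 3. That of macrophage markers was 0 without INT-767 replicate 2, 4 without INT-767 replicate 4 and 5 without INT-767 replicate 1, and it was 5 with the correction for GC content and length and in limma-voom.

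The remaining marker lists held fewer calls, or calls in the other direction. None of the 10 Kupffer cell markers was called by edgeR, with 3 lower at an unadjusted p under 0.05 and 1 called lower by DESeq2. EdgeR called 3 lower with scaling by library size only (7.39% of all tested genes) and 2 with the correction for GC content and length (5.86%). It called 1 with upper-quartile factors (5.85%) or at least 10 counts in every liver, and 3 without INT-767 replicate 4. They summed to 673 ± 127 and 601 ± 342 CPM, and *Cd5l*, the most abundant, had 219.5 and 215 CPM. Of 10 endothelial markers *Vwf* was called (-1.31, SE 0.35, adjusted p = 0.0359 by edgeR), with -0.74 (adjusted p = 0.0438) after correction for GC content and length. Their sum was 259 ± 62.5 and 201 ± 30.2 CPM, and *Stab2*, the most abundant, had 56.9 and 29.04 CPM (log2 fold change -0.97, and -0.43 after the correction). *Vwf* was called in edgeR with all livers. Of the fits without 1 liver, the list had 0 calls without Vehicle replicate 3, 4, 5 or 6 or INT-767 replicate 2, 3 or 4. It had 2 calls without Vehicle replicate 1 or INT-767 replicate 1. Of 9 portal and mesothelial markers *Mfap4* was called (-1.08, SE 0.27, adjusted p = 0.0283 by edgeR), with sums of 789 ± 249 and 813 ± 413 CPM and *Krt8* the most abundant at 505 and 611 CPM. The list had no lower call in edgeR without Vehicle replicate 3 or 5 or INT-767 replicate 2 or 3, and DESeq2, limma-voom and the correction for GC content and length each called 1 of its genes higher. Platelet markers, of interest because platelets carry thrombospondin-1, were low: 2 of 6 could be tested, and none was called by edgeR (1 at an unadjusted p under 0.05). Of the 2, 1 was called lower by DESeq2, by limma-voom, and by edgeR with library size only, upper-quartile factors, the correction for GC content and length, or without Vehicle replicate 1 or INT-767 replicate 4. All 6 summed to 8.83 ± 1.39 and 5.49 ± 1.97 CPM, led by *Itga2b*. Hepatocyte markers were the one list with a positive median, 0.57. Of 9 tested, *Ass1* (1.31, SE 0.21, adjusted p = 0.00450) and *Serpinc1* (0.98, SE 0.20, adjusted p = 0.0127) rose by edgeR, the latter with 34.4% of its exon bases under an antisense gene. The count was 1 without INT-767 replicate 2, 3 without Vehicle replicate 1 or INT-767 replicate 1, 4 without INT-767 replicate 4, 3 with the correction for GC content and length, and 5 in DESeq2. Their sum was 71730 ± 7556 CPM with vehicle and 106300 ± 16360 CPM with INT-767, led by *Alb* at 43060 and 63910 CPM. With TMM scaling the sums narrowly did not overlap, with 86200 CPM in the highest vehicle liver and 86710 CPM in the lowest INT-767 liver.

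**Figure D3:**
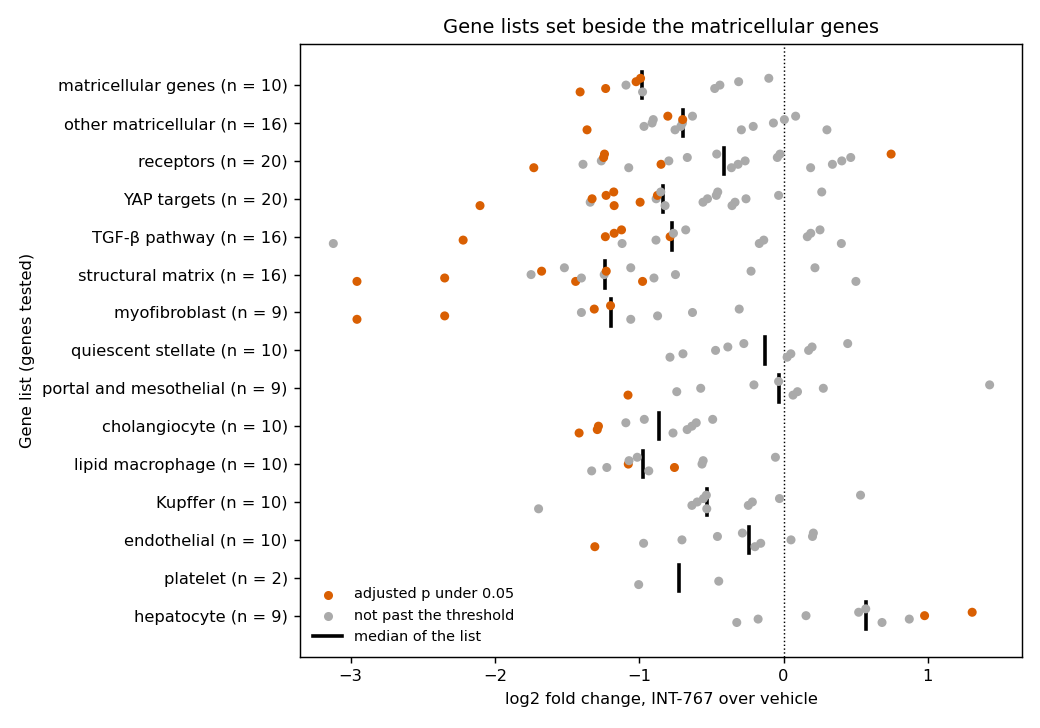
The log2 fold change (x axis, INT-767 over vehicle) of every tested gene of the matricellular genes and of the lists beside them, with the number tested in parentheses; orange points passed an adjusted p of 0.05 and black bars are medians. Structural matrix and myofibroblast markers have the lowest medians, -1.24 and -1.20, the matricellular genes -0.98, and hepatocyte markers the highest, 0.57.

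Within the 7 vehicle livers alone, where treatment plays no part, the 10 genes did not rise and fall as 1 block. Over the 45 pairs Pearson's r of log2(CPM + 0.5) had a median of 0.30, ranged from -0.77 to 0.97 and was positive for 28 pairs. That median was 0.17 without Vehicle replicate 5, 0.48 without Vehicle replicate 7 and 0.47 with CPM by library size only. *Sparc* and *Fbln2* were the closest pair by Pearson's r (r = 0.97, exact permutation p = 0.00159, adjusted over 45 pairs p = 0.0714). Spearman's rho for them was 0.89 (exact permutation p = 0.0123, adjusted p = 0.184). Without the 2 livers farthest from the median of *Sparc*, r was 0.94. By Spearman's rho *Ctgf* and *Spp1* were the closest pair (rho 0.93, exact permutation p = 0.00675, adjusted p = 0.184). Their r was 0.77 (exact permutation p = 0.0568, adjusted p = 0.255), and 0.86 without the 2 livers farthest from the *Ctgf* median. No pair passed an adjusted p of 0.05 by either measure, and 9 pairs had an unadjusted exact p under 0.05 by Pearson's r.

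*Sparc*, *Thbs1*, *Fbln1* and *Fbln2* had r between 0.69 and 0.97 with each other. Without the 2 livers farthest from the median of the first gene, r fell to 0.41 for *Sparc* and *Thbs1*, 0.29 for *Sparc* and *Fbln1*, 0.30 for *Fbln1* and *Fbln2*, 0.57 for *Thbs1* and *Fbln1* and 0.58 for *Thbs1* and *Fbln2*. These are values over 5 livers with a narrower range. *Postn* and *Tnc* had r = 0.86 (exact permutation p = 0.0141, adjusted p = 0.127, rho 0.89 with adjusted p = 0.184), falling to 0.44 without the 2 livers farthest from the *Postn* median. *Ctgf* and *Thbs2* had r = 0.86 (exact permutation p = 0.0175, adjusted p = 0.131, rho 0.75 with adjusted p = 0.331), and 0.41 without the 2 livers farthest from the *Thbs2* median. *Thbs2* and *Fbln1* had r = 0.84 (exact permutation p = 0.00992, adjusted p = 0.127, rho 0.75 with adjusted p = 0.331), and 0.82 without those 2 livers. *Tnc* and *Spp1* had the lowest r, -0.77 (exact permutation p = 0.0448, adjusted p = 0.224, rho -0.39 with adjusted p = 0.685), which turned to 0.60 without the 2 livers farthest from the *Tnc* median. *Cyr61* had a median r of -0.24 with the other 9 genes, and of -0.28 without Vehicle replicate 3.

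**Figure D4:**
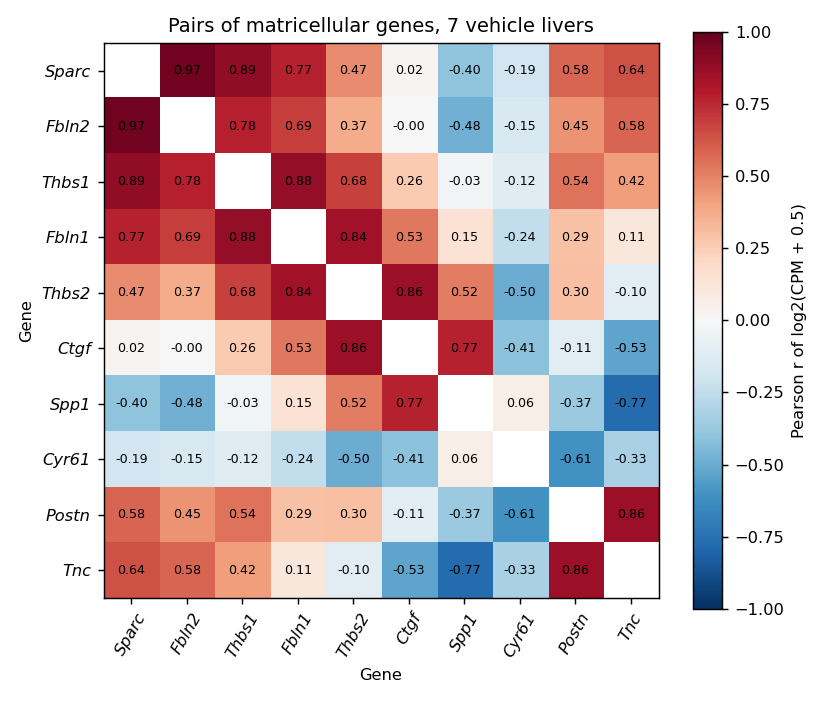
Pearson's r of log2(CPM + 0.5) over the 7 vehicle livers for each of the 45 pairs of matricellular genes, written in each cell and coloured from -1 (blue) to 1 (red). *Sparc*, *Fbln2*, *Thbs1* and *Fbln1* form a block of positive values up to 0.97, and *Cyr61* and *Spp1* have mostly values near or below 0.

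The genes most like each member over all 11 livers, after the group means were subtracted, were sought among 10253 genes with a mean of at least 5 CPM. They are given as a description, since all genes of a liver share its depth and scaling and the best of many genes is high by selection. *Sparc* was closest to *Fyb*, an adaptor of blood cells (r = 0.99), *Pcolce*, an enhancer of procollagen processing (0.98), and *AI607873* (0.97). *Thbs1* was closest to *Loxl3*, a lysyl oxidase (0.97), *Fgd2* (0.94) and *Fbn1*, fibrillin-1 (0.92). *Fbln2* was closest to *Gabbr1* (0.96), *Svep1*, a large matrix protein (0.96), and *Rcn3*, a chaperone of the secretory pathway (0.95).

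Among the genes closest to *Ctgf* were *Scara3* (0.97) and *Col4a5*, a basement membrane collagen (0.95). *Cyr61* was closest to *Hilpda* (0.95), and to the immediate early transcription factors *Junb* (0.94) and *Maff* (0.94). All 3 were highest in Vehicle replicate 3, where *Hilpda* was 17.4 times, *Junb* 5.02 times and *Maff* 2.81 times the median of the other 6 vehicle livers. *Spp1* was closest to *Gtpbp3* (0.98), *Fam180a* (0.98) and *1110038B12Rik* (0.97).

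*Fbln1* was closest to *Art4* (0.90), *Gng2* (0.88) and *Tgfb3*, a TGF-β ligand (0.87). Among the genes closest to *Postn* were *4930402H24Rik* (0.88) and *Maf* (0.83). *Thbs2* was closest to *Selenbp2* (0.92), *Apaf1* (0.90) and *Cyb561d1* (0.89), and *Tnc* to *B430306N03Rik* (0.93), *Slc26a11* (0.90) and *Armcx4* (0.89).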

How the data were processed

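Liver poly(A) RNA of 11 mice was sequenced as stranded libraries. The authors deposited raw read counts per gene, aligned with STAR to GRCm38. The submitters' processing notes name STAR 2.4.0 and the supplementary methods another version. Neither the counting program nor its strand setting is stated there. Groups are those of the labels. The members and lists were chosen with earlier results of these data known. Counts were fitted with edgeR 4.0.16 under R 4.3.3 (filterByExpr, minimum count 10; TMM; glmQLFit, robust; glmQLFTest with treatment only). P-values were adjusted by Benjamini-Hochberg over all 13880 tested genes (threshold 0.05). RPKM used merged exon lengths of GENCODE M21. Named genes were the members, each list's most abundant gene and up to 3 called genes with the smallest p, *Nr0b2* and the 3 genes most like each member; a few chosen this way are not reported here, and other names were chosen after their values were seen. Alternatives were RLE, upper-quartile or no factors, 2 other filters, DESeq2 1.42.0, limma-voom (limma 3.58.1), a replicate block, an offset for GC content and transcript length (13835 genes, with lowess), leaving out each liver and a threshold of 0.01. For 3 ratios, no pseudocount and leaving out each liver, and for the correlations of *Cyr61* leaving out Vehicle replicate 3, were added after seeing the data. No 2 libraries were copies (median chi-square per gene at least 1.11). Counting error alone sets a floor of 3 counts, 0.187 to 0.406 CPM per liver. Promoter sequences are RefSeq's (GRCm38.p6). EdgeR with and without the offset, DESeq2 and limma-voom were tested on simulated data, and the other alternatives were not.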

Additional observations from a re-analysis of the deposited data

Results flagged for a closer look

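Of 20 sets of values tested (10 matricellular genes in each group), 2 held a liver far from the rest of its group by Dixon's test on CPM, where chance flags about 1 in 20. *Cyr61* was 68.4 CPM in Vehicle replicate 3, and the next vehicle liver had 24.9 CPM. *Sparc* was 40.9 CPM in INT-767 replicate 2, and the next INT-767 liver had 82.7 CPM. The cause of neither was tested.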

How the results depend on the processing

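No member was called higher in any of the alternatives run. The count of members called lower, 4, was 0 at a threshold of 0.01 and under the replicate block, with or without the offset for GC content and length, and between 1 and 5 when 1 liver was left out. With the offset alone it was 3. The 1349 genes called in all were 2811 in DESeq2, 245 at a threshold of 0.01, 0 under the replicate block with and without the offset (1681 and 1347 genes with an unadjusted p under 0.05 in edgeR), and between 274 (without INT-767 replicate 2) and 3276 (without Vehicle replicate 1) when 1 liver was left out. Same-numbered livers deviated together with r = -0.69, 0.21, 0.15 and -0.48, so that the numbers do not pair the livers. Non-overlapping members numbered 4 to 6 without 1 liver, a count that cannot fall when a liver is left out. The median r over pairs was 0.17 to 0.48 without 1 liver. That median, 0.30 with TMM, was 0.47 with CPM by library size only. Scaling moved the split of calls: 700 higher and 649 lower with TMM, 331 and 1026 by library size only, 467 and 812 with upper-quartile factors. The median log2 fold change of all genes by library size only was -0.22. DESeq2 called more genes lower in the lists beside the members (6 other matricellular, 8 receptors, 12 YAP targets, 10 structural matrix, 6 duct and 6 macrophage genes), and edgeR without the filter on low counts fewer (2 other matricellular, 3 TGF-β, 3 structural matrix and 2 myofibroblast genes).

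Values near 0 changed sign, none past the threshold. *Fbln1* was 0.39 under the replicate block, 0.11 with the offset, 0.54 with both and -0.29 to 0.13 without 1 liver. *Vtn*, 0.01 with TMM, was -0.19 by library size only, -0.068 with upper-quartile factors, -0.061 with at least 10 counts in every liver, -0.005 in limma-voom, -0.13 under the replicate block, -0.16 with block and offset, and -0.13 to 0.14 without 1 liver. Without 1 liver *Krt8* was -0.21 to 0.51, *Ctsd* -0.294 to 0.039 and *Cd5l* -0.54 to 0.14. The causes of these changes were not tested. Of the members, *Fbln1*, *Tnc* and *Fbln2* had the fewest reads.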
